A study of Mus musculus with 8 samples.

Results

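The genes described here encode regulators of messenger RNA decay that act on the transcripts of activated T cells. They are the tristetraprolin family (Zfp36, Zfp36l1 and Zfp36l2), regnase-1 (Zc3h12a) and the roquins (Rc3h1 and Rc3h2). The 6 genes were chosen with earlier results of these data known. Their probes were taken by gene symbol alone, as every probe annotated to 1 of these 6 genes. This gave 7 of the 25697 probes, for 4 genes, namely 1 probe of Zfp36, 3 of Zfp36l1, 2 of Zc3h12a and 1 of Rc3h1. Zfp36l2 and Rc3h2 were not analysed here.

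The RNA of both groups came from nTreg, regulatory T cells sorted for CD4 and GFP (CD4+GFP+). The mice were of the C57BL/6 strain and all carried the FoxP3-GFP reporter, in which the fluorescent protein marks Foxp3 expression. There were 4 arrays titled G-CSF, from mice treated with that stem cell mobilising growth factor, and 4 titled Naive, whose treatment label reads saline. Dose, duration, age and sex were not used here, and separate animals or sorts are not named for the replicates, so p-values measure only the spread between these samples. All 9 regulatory T cell markers with a probe, Foxp3 among them, were well above background.

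Inside each array, the detection p-values disagree with the group names. All 8 intensity columns were in perfect order with a p-value column placed next to the other group's array of that replicate number, and 0 with their own. Every difference below is for arrays by the name of their intensities, and its sign would turn if those names are the ones out of place. Arrays also differed in brightness, with a median raw intensity of 144.2 ± 26.0 in G-CSF and 122.0 ± 2.99 in Naive (SD, n = 4 each; 2-sided exact permutation p = 0.0286, the smallest that 4 against 4 allows, adjusted p = 0.0571 over 2 array measures). The medians were 125.4 to 180.8 in G-CSF and 117.8 to 124.7 in Naive, without overlap. Without any 1 of the Naive arrays that p was 0.171, although the ranges then still did not overlap, since the test takes the size of the mean difference and the groups were then of unequal number. Between 9588 and 10519 probes were detected on an array, and the number of arrays limits the precision.

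Most messenger RNAs of cytokines and costimulators are short-lived because proteins bind elements in their untranslated ends and bring in the decay machinery. Tristetraprolin and its relatives bind AU-rich elements through a tandem pair of zinc fingers and recruit the CCR4-NOT deadenylase. Regnase-1 is an endonuclease that cuts stem-loops, and the roquins bind stem-loops and recruit deadenylases. In T cells these proteins restrain activation, and antigen receptor signalling in turn induces Zfp36 and leads to cleavage of regnase-1 by the protease MALT1.

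The sequences upstream of Zfp36, Zfp36l1 and Zc3h12a are shown because the tested probes of these 3 genes were highest on the same Naive array and lowest on the same other one. Each is the 250 bases before the annotated start, from RefSeq on GRCm38.p6, and capitals mark matches to the motifs searched on both strands.
Zfp36 (chr7:28379229-28379478, minus strand): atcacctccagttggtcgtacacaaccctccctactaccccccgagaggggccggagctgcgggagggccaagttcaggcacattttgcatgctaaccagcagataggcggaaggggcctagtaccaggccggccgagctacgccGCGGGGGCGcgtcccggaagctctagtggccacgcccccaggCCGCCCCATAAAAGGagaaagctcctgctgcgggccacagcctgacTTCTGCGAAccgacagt
Zfp36l1 (chr12:80113014-80113263, minus strand): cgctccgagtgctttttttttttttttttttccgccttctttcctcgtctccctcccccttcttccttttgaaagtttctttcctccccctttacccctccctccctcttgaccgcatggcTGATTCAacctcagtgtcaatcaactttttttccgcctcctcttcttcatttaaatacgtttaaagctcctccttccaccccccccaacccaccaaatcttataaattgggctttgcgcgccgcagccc
Zc3h12a (chr4:125127882-125128131, minus strand): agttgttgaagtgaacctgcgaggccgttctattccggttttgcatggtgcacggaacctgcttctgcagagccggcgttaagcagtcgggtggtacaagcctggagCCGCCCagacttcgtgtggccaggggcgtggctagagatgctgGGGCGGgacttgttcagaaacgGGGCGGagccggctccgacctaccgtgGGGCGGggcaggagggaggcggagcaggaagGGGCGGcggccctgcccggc
Of the 6 genes, 5 had a RefSeq sequence. The motifs were the CArG box bound by serum response factor, the kappaB site, the STAT site TTCNNNGAA, the AP-1 site TGANTCA, the cAMP response element TGACGTCA, the EGR site GCGGGGGCG and the GC box GGGCGG.

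The Zfp36 window held a CArG box from 58 to 49 bases before the start. It also held an EGR site 105 to 97 bases before it and a STAT site 17 to 9 bases before it. Of all 32851 windows of the same length, 1.47% held a CArG box, 2.57% an EGR site and 7.02% a STAT site. A GC box overlapped the CArG box by its last base. The Zfp36l1 window held an AP-1 site 129 to 123 bases before the start, as did 6.75% of windows. The Zc3h12a window held 5 GC boxes and none of the other motifs, and 32.7% of windows held a GC box. Matches are a description of the letters, not of binding.

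Expression of these RNA decay regulators was not shown to differ between G-CSF and Naive cells. Of the 7 probes, 6 passed the filter on dim probes, and 0 of these 6 were called by limma at an adjusted p under 0.05, against 2.20% of all 10205 probes tested. At an unadjusted p under 0.05, 1 of the 6 passed, against 24.9% of all probes. For 0 of the 6 did the groups separate without overlap, against 13.6% of all probes. Array weights were the only one of 21 alternatives to call any member, with 2 probes of Zfp36l1 called in opposite directions, where 37.0% of all probes were called.

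Zfp36 encodes tristetraprolin, which binds the AU-rich elements of Tnf and other cytokine transcripts. On the normalised log2 intensity scale its probe read 13.97, 14.53, 14.06 and 14.46 in G-CSF replicates 1 to 4, against 14.49, 13.47, 14.31 and 14.41 in Naive replicates 1 to 4. The groups overlapped, and Naive replicate 2 was the lowest of the 8 arrays. The log2 difference was 0.08 ± 0.23 (SE, n = 4 per group; limma adjusted p = 0.850), with a 95% interval of 0.741-fold to 1.52-fold.

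Zfp36l1 encodes a relative of tristetraprolin that acts with Zfp36l2 in lymphocyte development, and its 3 probes did not give 1 answer. Probe 1, the brightest, read 14.84, 14.99, 15.72 and 15.60 in G-CSF cells, against 15.40, 14.46, 15.001 and 14.93 in Naive cells. The G-CSF values formed a lower and a higher pair, and the groups overlapped. Its log2 difference was 0.34 ± 0.25 (SE, n = 4 per group; limma adjusted p = 0.407; 95% interval 0.867-fold to 1.85-fold). Without the 2 brightest arrays, G-CSF replicates 3 and 4, the difference was -0.035. The raw intensity of this probe on G-CSF replicate 3 was 53289.1, where the brightest probe of that array read 59523.7.

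Probe 2 of Zfp36l1 read 13.40, 13.71, 13.74 and 13.80 in G-CSF cells, against 14.22, 13.13, 13.37 and 13.52 in Naive cells. All 4 G-CSF values lay inside the range of the Naive values. Its log2 difference was 0.10 ± 0.22 (SE, n = 4 per group; limma adjusted p = 0.802).

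Probe 3, much dimmer, read 7.53, 7.15, 7.63 and 7.33 in G-CSF cells, against 8.41, 7.41, 7.98 and 8.12 in Naive cells. Naive replicates 1, 3 and 4 were above every G-CSF array, and Naive replicate 2 lay inside the G-CSF range. The log2 difference was -0.57 ± 0.21 (SE, n = 4 per group; limma adjusted p = 0.134). Before correction for the number of probes, limma's p was 0.0205 and the 95% interval ran from 0.487-fold to 0.928-fold. This was the member probe with the smallest p, and its difference was negative under all 21 alternatives, from -0.76 to -0.25. Without Naive replicate 2 it was -0.76.

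Zc3h12a encodes regnase-1, the endonuclease. Probe 1 read 9.05, 9.17, 9.02 and 9.31 in G-CSF cells, against 10.13, 8.75, 8.997 and 9.31 in Naive cells. The G-CSF arrays lay within 0.29 of each other, while the Naive arrays spread over 1.38, with replicate 1 at the top. The log2 difference was -0.16 ± 0.26 (SE, n = 4 per group; limma adjusted p = 0.728; 95% interval 0.605-fold to 1.33-fold), and it was 0.12 without Naive replicate 1. Probe 2 passed the detection threshold on 2 of 4 arrays in G-CSF and on 2 of 4 in Naive. It read 5.13, 5.86, 6.75 and 6.59 in G-CSF cells, against 6.94, 4.84, 5.33 and 6.15 in Naive cells. The groups overlapped, and the log2 difference was 0.27 ± 0.46 (SE, n = 4 per group; limma adjusted p = 0.744).

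Rc3h1 encodes roquin-1, which restrains Icos and Tnfrsf4 transcripts. Its probe passed the detection threshold on 1 of 4 arrays in G-CSF and 2 of 4 in Naive, and so was not tested. It read 6.07, 6.52, 5.98 and 5.99 in G-CSF cells, against 6.16, 6.23, 6.23 and 6.25 in Naive cells. The detection p-values lay between 0.00251 and 0.0175, close to the threshold of 0.01 on both sides. With no filter on dim probes, the log2 difference was -0.08 ± 0.12 (SE, n = 4 per group; limma adjusted p = 0.844 over 25697 probes).

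**Figure D1:**
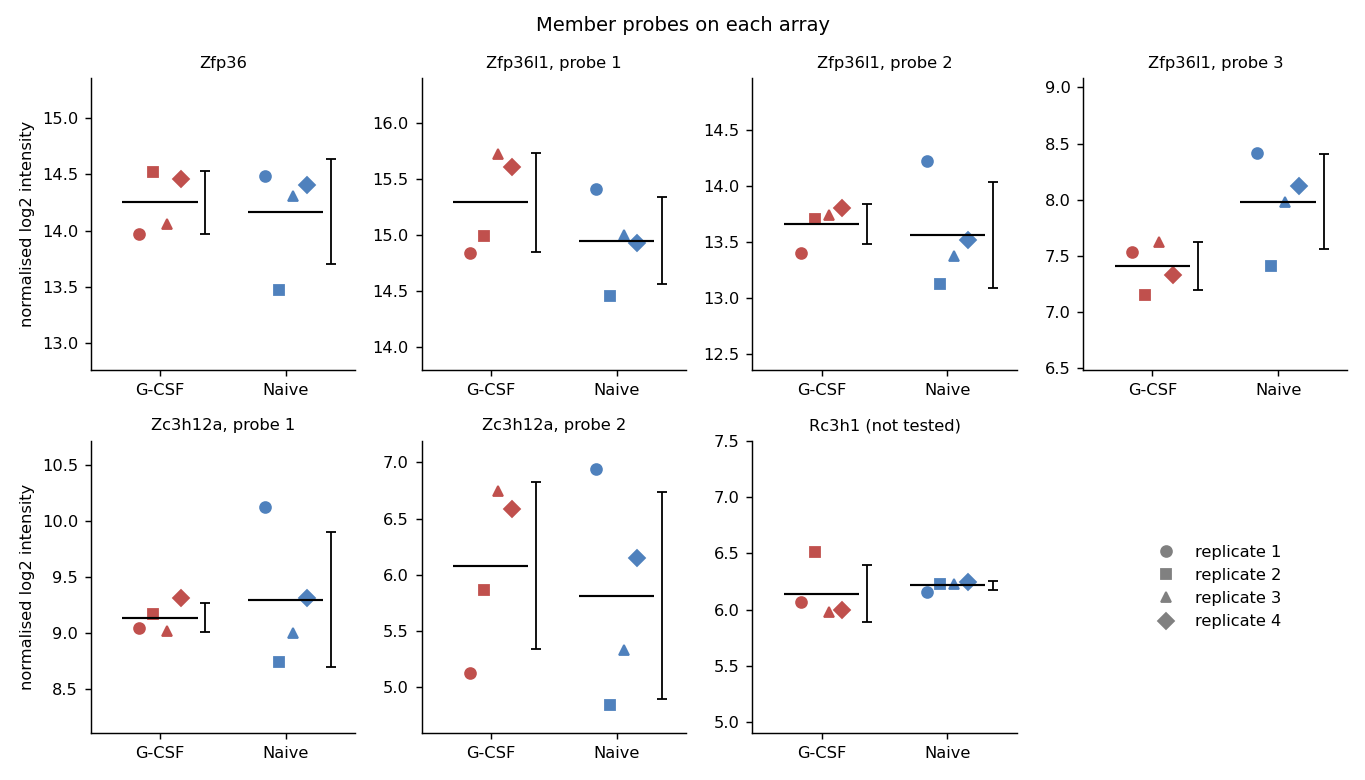
Normalised log2 intensity of the 7 member probes on each array (vertical axis, the same span in every panel), with G-CSF arrays in red and Naive arrays in blue and a marker shape for each replicate number. Horizontal lines are group means and error bars SD (n = 4 arrays per group). The groups overlap in all 7 panels, and in the 6 tested ones Naive replicate 1 is the highest and Naive replicate 2 the lowest of the Naive arrays.

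**Figure D2:**
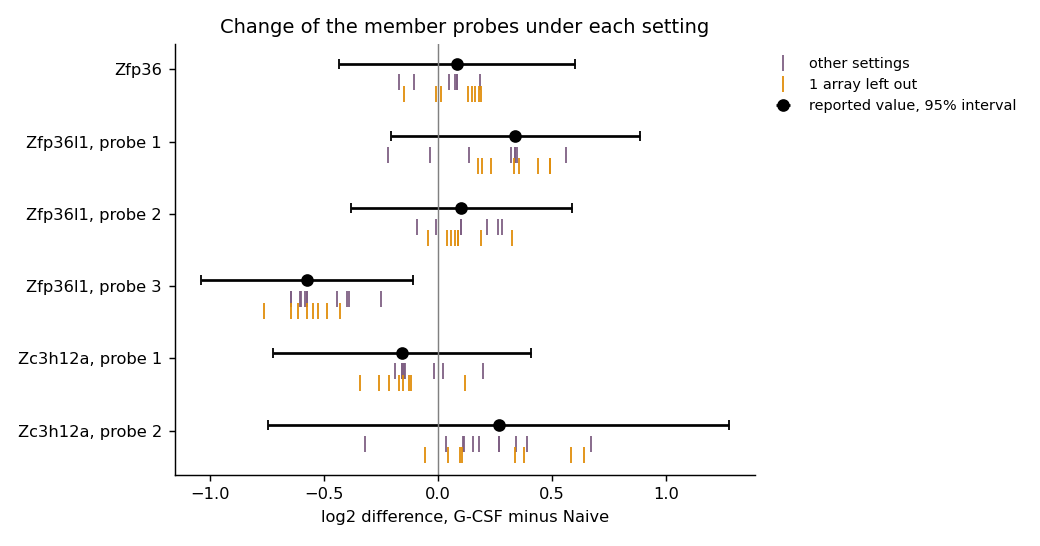
Log2 difference of the 6 tested member probes, G-CSF minus Naive (horizontal axis). Circles with bars are the reported values with 95% intervals, purple ticks the other settings and orange ticks the fits with 1 array left out. Probe 3 of Zfp36l1 stays below 0 throughout, from -0.76 to -0.25, and each of the other 5 probes has ticks on both sides of 0.

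For each tested member probe, the Naive arrays ranged more widely than the group means differed, a comparison not made for other probes. Naive replicate 1 was the highest and Naive replicate 2 the lowest of the Naive arrays for 6 of the 6 tested probes. Among all probes tested, 15.02% had those extremes. The 2 arrays between them did not keep 1 order over the probes. The probes of a gene share transcripts, so the 6 are 3 genes and not 6 independent observations. The log2 gap between these 2 arrays was 0.95 to 2.10 over the member probes, against -0.74 at the 5th and 1.09 at the 95th percentile of all probes. The Zfp36 and Zfp36l1 probes had 0.95 to 1.09, inside those percentiles, and probe 1 of Zc3h12a had 1.38. The 2.10 was that of probe 2 of Zc3h12a, whose signal was near background. The SD of the Naive arrays was 0.39 to 0.60 for the member probes other than that one, which had 0.92. The median over all probes tested was 0.22. In G-CSF cells, replicate 1 was the lowest array for 4 of the 6, and the share of all probes with that order was not counted. Probe 3 of Zfp36l1 was lowest on replicate 2 and probe 1 of Zc3h12a on replicate 3.

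Early activation genes often had the same extremes. Of 19 tested genes of that list, which holds Fos, Jun and Egr genes induced within minutes of stimulation, 10 had Naive replicate 1 highest and Naive replicate 2 lowest. Their mean log2 deviation from the mean of the 8 arrays was 0.46 on Naive replicate 1 and -0.45 on Naive replicate 2, where the 3 members at their brightest probes had 0.49 and -0.62. G-CSF replicate 1 had -0.54 for the early genes and -0.23 for the members. The transcripts described as targets of these regulators, with the members left out, had 11 of 19 genes with these extremes, and 3 tested genes belong to both lists. Of the other lists, nonsense-mediated decay had 3 of 6, the other RNA-binding regulators 6 of 16, deadenylation 3 of 14, decapping 2 of 14, the kinases 1 of 15 and the exosome 0 of 15.

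Naive replicate 1 also stood apart in some genes of antigen-presenting cells. Of the 5 dendritic cell markers, 3 were tested, the class II genes H2-Aa, H2-Ab1 and H2-Eb1, while Itgax and Flt3 were not well above background. Their summed background-corrected intensity was 642 to 1089 in G-CSF cells, against 872 to 5554 in Naive cells, with the highest on Naive replicate 1 and 2355 on Naive replicate 2. The class II genes were thus raised on both Naive arrays that lay at opposite ends for the members. The 2 tested monocyte and macrophage markers, Lyz2 and Adgre1, had a mean log2 deviation of 0.84 on Naive replicate 1 and -0.43 on Naive replicate 2, with their lowest, -0.63, on Naive replicate 3. Adgre1 read 6.85 to 7.50 in G-CSF cells, against 8.99 on Naive replicate 1 and 6.49 to 7.09 on the other Naive arrays. Lyz2 did not stand apart there. It read 9.62 to 10.70 in G-CSF cells, against 9.78 on Naive replicate 1 and 8.88 to 10.35 on the other Naive arrays. The B cell marker Cd79b was at its lowest of the 8 arrays on Naive replicate 1, at 9.76. The part of these markers in the members' extremes was not tested.

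**Figure D3:**
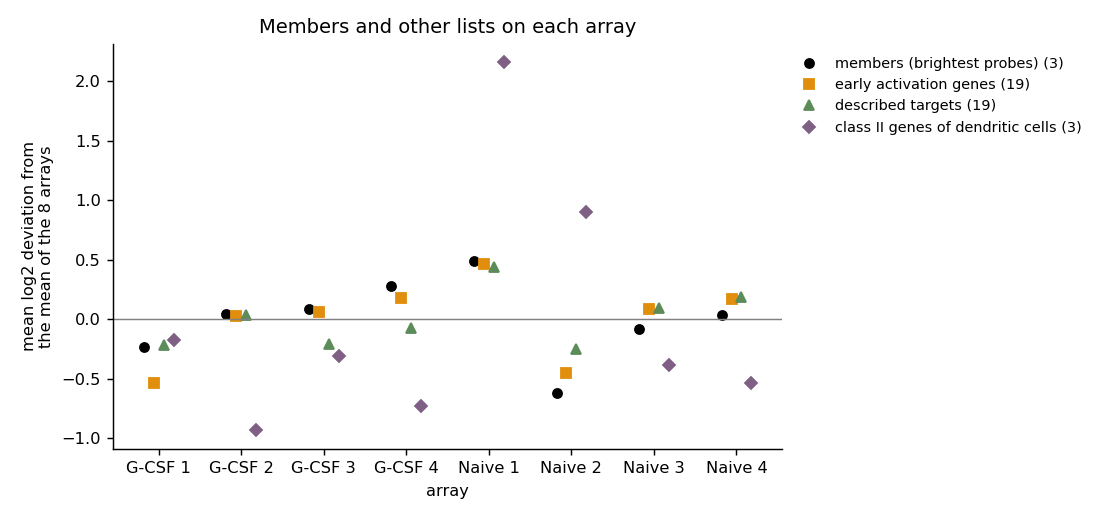
Mean log2 deviation from the mean of the 8 arrays (vertical axis) on each array (horizontal axis) for the members at their brightest probes, early activation genes, described targets and class II genes, with the number of genes in brackets. Members and early genes are highest on Naive 1, at 0.49 and 0.46, and low on Naive 2, while class II genes are raised on both.

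Whether the members changed unequally was tested on the difference of 2 probes within an array. For the brightest probes of Zfp36, Zfp36l1 and Zc3h12a there were 3 pairs, and 0 passed (2-sided exact permutation p of 0.143 to 0.457, adjusted p of 0.429 to 0.457). The Zfp36l1 minus Zc3h12a difference gave the smallest p, with a log2 difference of 6.15 in G-CSF cells, against 5.65 in Naive cells, while the probes' own brightness sets the size of both. Over all 15 pairs of tested member probes, 3 reached 0.0286, the smallest exact permutation p that 4 against 4 allows, and each became 0.143 after adjustment. All 3 involve probe 3 of Zfp36l1. Set against it, probe 1 of the same gene was 7.31 to 8.27 log2 units brighter in G-CSF cells and 6.81 to 7.05 in Naive cells. The 2 ranges did not overlap, but this pair did not pass after adjustment over the 15.

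Genes whose array pattern was most like each member were found by Pearson's r over the 8 arrays. These arrays share a cell source but differ in group and brightness. Pogz (0.940), Golga2 (0.931) and Tnfrsf12a (0.924) were nearest to Zfp36. Nearest to probe 1 of Zfp36l1 were Camk2g (0.9748), Mapk1ip1 (0.973) and Phlda1 (0.972). For probe 1 of Zc3h12a they were Mtdh (0.993), Srsf2 (0.966) and Stx5a (0.957). These values of r are the highest of 10205 probes and are given as a description. Among the member probes themselves, r over the 8 arrays ran from 0.139 to 0.902 over 15 pairs, and from 0.524 to 0.953 on deviations from the group means.

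The machinery that the members recruit was measured in part. In deadenylation, decapping and the exosome 0 of its genes were called, against 2.20% of all probes. Cnot1, Parn and the decapping gene Dcp2 were among those not tested. The deadenylation list holds the CCR4-NOT complex, PAN2, PAN3 and the BTG and TOB adaptors, and 14 of its 20 genes were tested. At an unadjusted p under 0.05, limma passed 2 higher and 1 lower, where 24.9% of all probes passed. The list median was -0.06 on the log2 scale, against -0.01 over all tested probes. Cnot3, a subunit of CCR4-NOT, had 1.06 ± 0.31 (SE, n = 4 per group; limma adjusted p = 0.0842). It was called under 3 of 21 alternatives, among them without Naive replicate 1 (1.24, adjusted p = 0.0426). That fit called 1089 of all 10205 probes. Without G-CSF replicate 4 the adjusted p of Cnot3 was 0.241. Cnot7, a catalytic subunit that tristetraprolin brings to its targets, had -0.44 ± 0.13 (adjusted p = 0.0908). Of 14 decapping genes, 1 higher and 2 lower passed unadjusted. Their median was 0.20, with Dcp1a, a decapping activator, at 0.49 (limma adjusted p = 0.156) and Lsm6 at -0.36 (0.182). Of 15 exosome and SKI genes, 3 higher and 1 lower passed unadjusted. Their median was 0.06, with the exosome core gene Exosc4 at -0.54 (limma adjusted p = 0.0915) and the helicase gene Mtrex at 0.35 (0.122). The adjusted p of Exosc4 was 0.0327 without Naive replicate 1 and 0.259 without G-CSF replicate 4.

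In nonsense-mediated decay, whose factor UPF1 also works with regnase-1, 1 of 6 tested genes was called, against 2.20% of all probes. The call was a rise of Smg5. Smg5, a gene of the recruiting step, had 6.40, 6.77, 6.88 and 6.86 in G-CSF cells, against 6.22, 6.07, 5.79 and 6.03 in Naive cells on the log2 scale. The groups did not overlap. The log2 difference was 0.70 ± 0.16 (SE, n = 4 per group; limma adjusted p = 0.0489), and this probe was detected on 1 of 4 Naive arrays. The difference was smaller with other background handling, at 0.40 with a normexp offset of 50, 0.33 with no background correction and 0.31 in the deposited log2 table. A second, dimmer probe of Smg5 had -0.37 (limma adjusted p = 0.462). Without G-CSF replicate 2, 3 or 4 or Naive replicate 2, 3 or 4, the adjusted p of the called probe was 0.0902 to 0.169, and it was called under 4 of the 20 alternatives that gave a value. Those fits with 1 array left out called 1 to 10 of all 10205 probes. The list median was 0.42.

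Among other RNA-binding regulators of stability, 1 of 16 tested genes was called, a fall of Igf2bp3, against 2.20% of all probes. Igf2bp3, a protein that stabilises the transcripts it binds, had 8.79, 9.09, 8.44 and 8.38 in G-CSF cells, against 9.72, 9.92, 9.51 and 9.37 in Naive cells. All G-CSF values were below all Naive values. The log2 difference was -0.96 ± 0.19 (SE, n = 4 per group; limma adjusted p = 0.0471), and a second probe had -0.61 (0.0651). Without G-CSF replicate 2, 3 or 4 or Naive replicate 2, 3 or 4, its adjusted p was 0.0660 to 0.164, and it was called under 10 of 21 alternatives. Those fits with 1 array left out called 1 to 10 of all 10205 probes. With median scaling over all probes, which shifted all probes by a median of 0.29, the difference was -0.62. In this list Malt1, the protease that cleaves regnase-1, had 0.53 (limma adjusted p = 0.146), Arid5a, which opposes regnase-1 on shared targets, 0.25 (0.522), and the regnase relative Zc3h12d -0.11 (0.654). The list median was 0.13.

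Of the 15 tested kinases and partners that act on tristetraprolin or regnase-1, 0 were called by limma, with a median of 0.08, and 3 higher and 3 lower passed at an unadjusted p under 0.05. Mapkapk3, a relative of the kinase MK2 that inactivates tristetraprolin, had 0.60 ± 0.15 (SE, n = 4 per group; limma adjusted p = 0.0628). The adjusted p of Mapkapk3 was 0.0342 without G-CSF replicate 1, where 712 of 10205 probes were called, and 0.186 without G-CSF replicate 4. Irak1, a kinase of the receptor pathway that leads to regnase-1 phosphorylation in macrophages, had 0.67 ± 0.19 (adjusted p = 0.0810). The adjusted p of Irak1 was 0.0188 without Naive replicate 1, where 1089 probes were called, and 0.216 without G-CSF replicate 4. Mapkapk2, which encodes MK2 itself, had 0.24 (limma adjusted p = 0.440), and Mapk14, the p38 alpha gene, had 0.34 (0.317).

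Of 31 transcripts described as targets of these regulators, 30 had a probe, 21 were tested and 1 was called, against 2.20% of all probes. The list was chosen with earlier results of these data known. The call was a fall of Il10, whose transcript tristetraprolin destabilises in macrophages. Il10 read 10.05, 10.57, 10.72 and 10.70 in G-CSF cells, against 12.19, 11.53, 11.97 and 12.20 in Naive cells. Its log2 difference was -1.46 ± 0.20 (SE, n = 4 per group; limma adjusted p = 0.0253). Without G-CSF replicate 2, 3 or 4 or Naive replicate 3 or 4, its adjusted p was 0.0596 to 0.130, and it was called under 13 of 21 alternatives. Those fits with 1 array left out called 1 to 4 of all 10205 probes, and the Il10 difference in them was -1.39 to -1.53. The median of the 21 was -0.13, and 13 of them, with Zc3h12a among these, had a negative value.

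Some targets known for roquin and regnase-1 in T cells are given for their roles, with their values known beforehand. The costimulator genes Icos and Tnfrsf4 had log2 differences of 0.16 (limma adjusted p = 0.686) and 0.01 (0.966). Rel, an NF-kappaB subunit, had -0.65 (adjusted p = 0.129), and the inhibitor genes Nfkbid and Nfkbiz had -0.08 (0.852) and -0.28 (0.557). Il2ra, a chain of the receptor for IL-2, had 0.21 (0.458), Ctla4, an inhibitory receptor, -0.57 (0.0951) and Irf4, a regulator of effector cells, 0.35 (0.176). Among AU-rich targets of tristetraprolin, Tnf had 0.38 (0.262), Ifng -0.75 (0.0966), Ier3 -0.99 (0.106) and Dusp1 -0.40 (0.168). None of these was called after adjustment, and their signs differed within each group of targets. Over the 21 tested targets, 2 higher and 6 lower passed at an unadjusted limma p under 0.05. Of all 10205 probes tested, 1301 higher and 1236 lower passed. The lower targets were Il10, Rel, Ctla4, Ifng, Ier3 and Dusp1. The higher ones were Irf4 and Ccnd3 (0.32, limma adjusted p = 0.195).

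Of the 19 early activation genes, 0 were called by limma, with a median of -0.23, and 2 higher and 4 lower passed at an unadjusted p under 0.05. Klf6, a zinc finger gene, had -0.76 ± 0.18 (SE, n = 4 per group; limma adjusted p = 0.0554). Klf6 was called under 9 of 21 alternatives, among them no background correction (limma adjusted p = 0.0476) and the deposited log2 table (0.0477). The adjusted p of Klf6 was 0.0454 without Naive replicate 1, where 1089 of 10205 probes were called, and 0.173 without G-CSF replicate 4. Egr2, a target of antigen receptor signalling, had 0.55 ± 0.15 (adjusted p = 0.0709).

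**Figure D4:**
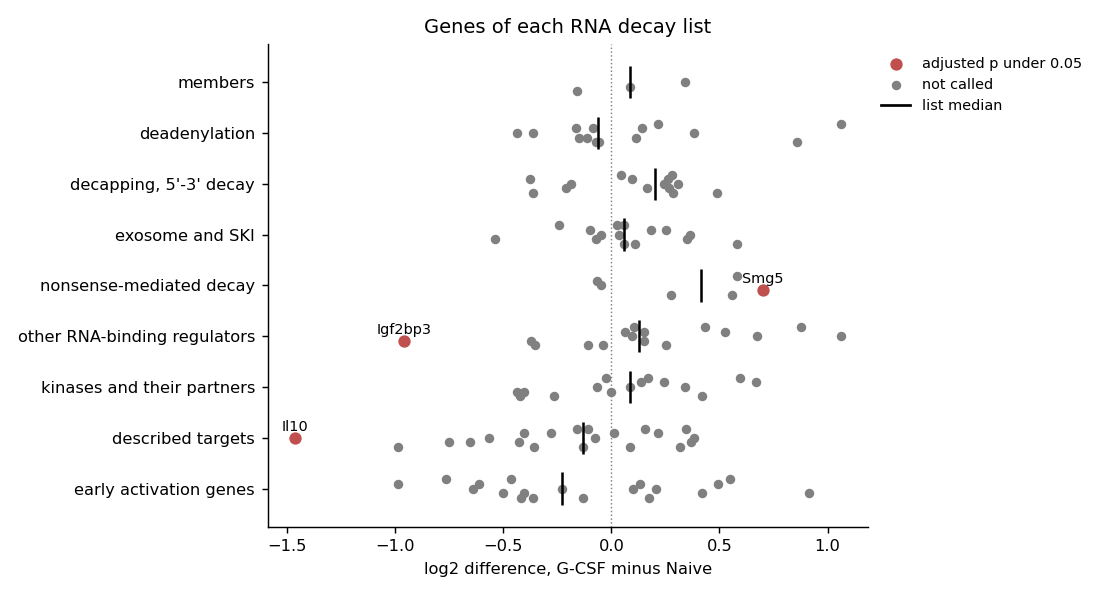
Log2 difference, G-CSF minus Naive (horizontal axis), of every tested gene in the 9 lists at its brightest probe. Red points are the called genes Smg5, Igf2bp3 and Il10, grey points the others, and vertical bars the list medians, which run from -0.23 for early activation genes to 0.42 for nonsense-mediated decay.

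Of the markers of other cell types with a probe, 1 of 4 B cell, 2 of 5 CD8 T and NK cell, 2 of 4 monocyte and macrophage, 1 of 6 neutrophil, 3 of 5 dendritic cell and 2 of 3 erythroid markers passed the filter and were tested. None was called, and no marker of the 9 tested for regulatory T cells was called either. At an unadjusted p under 0.05, limma passed 1 lower neutrophil, 1 lower dendritic cell, 1 higher erythroid and 1 lower regulatory T cell marker, and 0 of the others. Fewer cells of a type and less RNA per cell cannot be told apart in such bulk samples.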

How the data were processed

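Sorted regulatory T cell RNA was measured on 8 single-colour Illumina MouseRef-8 bead arrays. The deposited table holds non-normalised intensity values and detection p-values for each probe, per the file headers. The submitters' processing notes name GenomeStudio. A second deposited table holds log2 values, and how the authors made it is not stated. Quantile normalised log2 intensities centred on each probe's median differed from it by an SD of at most 0.00446, so its scale and direction are those of the intensities and its centring removes levels. The files name no genome build.

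Members and lists were chosen with earlier results of these data known. Each detection p-value column, which names no sample, was joined to the intensities it is in order with (tolerance 0.0001). The neqc function of limma 3.58.1 (R 4.3.3) corrected background by normexp, added an offset of 16, normalised by quantiles and took log2. Probes detected (p-value under 0.01) on 4 or more of 8 arrays were tested with lmFit and eBayes, adjusted by Benjamini-Hochberg over 10205 probes and called under 0.05. The fit was run on simulated data with independent normal noise for each probe and array. Those data hold no shift shared by the probes of an array, so that run cannot speak to such shifts. Of the probes, 23978 had 1 gene symbol, 0 several and 1719 none here, and 23962 were matched to RefSeq by Entrez identifier.

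A gene stands at its brightest tested probe. Named genes follow a rule, namely every member probe, up to 4 called genes a list (failing any call, the 2 of smallest p), and the 3 genes most like each member. Malt1, Arid5a, Zc3h12d, Mapkapk2, Mapk14 and the targets other than Il10 were named outside the rule, for their roles, with their values known. There were 20 alternatives (background correction, normalisation, the deposited log2 table, dim-probe filter, variance model, array weights, replicate block, arrays left out) and 1 added after seeing the data. No slide or batch is named.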

Additional observations from a re-analysis of the deposited data

Results flagged for a closer look

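Over the member probes and the genes the rule names, 64 groups of 4 arrays were examined, and 3 held 1 array well apart from its other replicates. Chance gives about 1 in 20. Rc3h1 on G-CSF replicate 2 read 6.52 on the log2 scale, where the other G-CSF arrays read 5.98 to 6.07. Ctla4 on Naive replicate 1 read 14.67, where the other Naive arrays read 14.002 to 14.09. Hba-a1 on G-CSF replicate 1 read 10.34, where the other G-CSF arrays read 8.85 to 9.08.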

How the results depend on the processing

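The count of 0 called member probes was the same under 20 of 21 alternatives. Array weights called 2, probe 1 of Zfp36l1 at 0.56 (limma adjusted p = 0.0328) and probe 3 at -0.58 (0.0193). The count over all probes, 224, became 856 with median scaling over all probes (810 higher and 46 lower, where the reported fit had 97 and 127; all probes shifted by a median of 0.29), 4 with no filter on dim probes, 3776 with array weights, 0 without the 2 brightest arrays (1439 at an unadjusted p under 0.05) and 1 to 1089 with 1 array left out. Median scaling over the kept probes gave 77 higher and 210 lower.

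The difference of probe 3 of Zfp36l1 was negative under all 21 alternatives, while each of the other 5 tested member probes changed sign under at least 1. Median scaling over the kept probes gave -0.17 for Zfp36, -0.22 for probe 1 and -0.090 for probe 2 of Zfp36l1. Without the 2 brightest arrays the values were -0.035 and -0.0071 for those Zfp36l1 probes and -0.32 for probe 2 of Zc3h12a. For probe 1 of Zc3h12a, array weights gave 0.021. Median scaling over all probes gave 0.20, which is below the 0.29 by which it shifted all probes. Without Naive replicates 1 and 2, chosen after seeing the data, Zfp36 had -0.11. With 1 array left out, Zfp36 ran from -0.15 to 0.19, probe 2 of Zfp36l1 from -0.041 to 0.32, probe 1 of Zc3h12a from -0.34 to 0.12 and probe 2 from -0.058 to 0.64. Of the markers, Cd79b had 0.27 and Adgre1 0.041 with median scaling over all probes, both again below that shift. Adgre1 had 0.14 with array weights, 0.41 without Naive replicates 1 and 2 and -0.54 to 0.29 with 1 array left out. The cause was not tested. Over the alternatives, limma's adjusted p ran from 0.0328 to 0.966 for probe 1 and 0.0193 to 0.519 for probe 3 of Zfp36l1, 0.00356 to 0.452 for Cnot3, 0.00325 to 0.420 for Exosc4, 0.00315 to 0.281 for Mapkapk3, 0.00577 to 0.266 for Irak1, 0.00465 to 0.246 for Klf6, 0.00201 to 0.260 for Smg5, 0.00237 to 0.248 for Igf2bp3 and 0.00148 to 0.244 for Il10.

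Same-numbered arrays of the 2 groups deviated together at r of -0.12 to 0.18. With 4 arrays per group, such values cannot settle whether the numbers pair the samples. The fit with the replicate block called 4 probes and 0 member probes. Testing every pair of member probes in place of the brightest left 0 pairs past the threshold. The gap in median raw intensity was 10.0 to 28.5 with 1 array left out, and that in detected probes 79.4 to 350.8. Signal near background limits probe 2 of Zc3h12a and the probe of Rc3h1.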
